A study of Mus musculus with 22 samples.

Results

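Keratins are the proteins of the intermediate filaments of epithelial cells, and 42 keratin genes were read among the 27670 gene names of a mouse whole-genome array. They were chosen by name: every gene listed on the array under a symbol starting with Krt, older symbols of the Krt1- and Krt2- type included, and the keratin-associated genes Krtap and Krtdap left out. A further 2 Krtcap genes also begin with these letters, are not keratins and were set apart. By the epithelium they are known from, 6 members are simple keratins of single-layered linings such as the gut, 16 are squamous keratins of layered epithelia such as skin and oesophagus, and 20 are keratins of the cornea, hair, nail and hair root sheath or are unplaced here.

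Messenger RNA was measured on 22 one-colour arrays of whole tissue from male C57BL/6 mice kept on chow, with 3 or 4 mice a group. SIRT1 iKO mice were compared with Flox controls in the aged colon (n = 4 iKO and n = 3 flox), in the aged ileum (n = 4 and n = 3) and in the young ileum (n = 4 and n = 4). Aged mice were 24 months old and young mice 6 to 8 weeks old. The labels neither spell out iKO nor give the part of Sirt1 that was removed, the driver of its removal or whether a mouse gave both tissues.

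Keratins work in pairs. A type I and a type II keratin wind together into a filament, and filaments are anchored at desmosomes and hemidesmosomes, the junctions that hold epithelial cells to each other and to the matrix below. In the gut lining Krt8, of type II, pairs with the type I keratins Krt18, Krt19 and Krt20, while layered epithelia build Krt5 and Krt14 in their basal cells and Krt1 and Krt10 in the cells above. In the mouse most type I genes lie together on chromosome 11 and the type II genes, with Krt18, on chromosome 15.

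All levels are on a log2 scale on which 0 is the 75th percentile of the signals of that array, and the brightest probe stands for each gene. Levels of different probes are not on 1 scale and are not set against each other. A probe counts as detected where the scanner software marked it well above background. Differences were fitted with limma across all genes, in 1 fit each for the 15 ileum arrays, the 7 colon arrays and the 14 aged arrays, and a gene is called at a Benjamini-Hochberg adjusted p under 0.05. Errors beside a difference are standard errors of the fit. In whole tissue, fewer cells of a type and less RNA per cell cannot be told apart.

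The tissue labels were checked with marker genes, and 2 arrays stood apart. Fabp6, the bile acid binding protein of the ileum, was at 3.20 or above on all ileum arrays and at -2.55 or below on all colon arrays. Car1 and Aqp8, a carbonic anhydrase and a water channel of colon epithelium, were nevertheless at 8.18 and 6.55 on aged ileum flox replicate 1, and at 7.79 and 5.57 on aged ileum iKO replicate 2. On the other 5 aged ileum arrays Car1 was between -3.00 and -2.14, and colon arrays had it at 8.17 to 8.74. Hoxb13, a transcription factor of the distal colon, was detected on none of the 7 aged ileum arrays. Hoxd13, the other Hox gene among the 4 colon markers, was detected on at least 1 array of each aged ileum group. It was detected on no young ileum array. A smaller excess of Car1 was seen on young ileum iKO replicate 2, at 1.26, and young ileum flox replicate 2, at 2.63. Each result below that uses the aged ileum was therefore also fitted without the 2 aged arrays, a choice made after seeing the data.

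Arrays of the colon held 70.4% to 79.7% of spots well above background, against 49.8% to 61.5% on ileum arrays, and the tissues sat on separate slides. Tissue and array run cannot be told apart. In the ileum, positions 3 and 4 of a slide held the aged samples and positions 1 and 2 the young ones, so that age and position cannot be told apart either. Sirt1 itself, read by a probe of unknown place relative to the deletion, differed between iKO and flox by -0.28 ± 0.11 in aged colon (adjusted p = 0.623, limma). The difference was -0.50 ± 0.13 in aged ileum (adjusted p = 0.177), and in young ileum it was -0.21 ± 0.12 (adjusted p = 0.999).

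Detection of the keratins differed by class. The 6 simple keratins Krt7, Krt8, Krt18, Krt19, Krt20 and Krt23 were detected on all 22 arrays. Of the 16 squamous keratins, 11 were detected on every array of at least 1 group and 5 on all 22 arrays: Krt10, Krt13, Krt15, Krt16 and Krt17. Of the 20 others, Krt12 and Krt84 were detected on all 22 arrays, and 3, Krt28, Krt42 and Krt82, were detected on no array. These counts use the brightest probe of each gene. For Krt1 that probe matches the strand opposite to the probe named from its RefSeq transcript. The latter was detected on 2 of 4 aged colon iKO arrays and 1 of 3 aged colon flox arrays. A second Krt13 probe was detected on no array. A second Krt12 probe, which matches the opposite strand, was detected on 1 young ileum iKO array alone. Squamous keratins detected on all arrays of a group were 10 of 16 in aged colon iKO and in aged colon flox. They were 6 in aged ileum iKO, in aged ileum flox and in young ileum iKO, and 7 in young ileum flox. Over all spots, 70.4% to 79.7% were well above background on a colon array, against 49.8% to 61.5% on an ileum array. The squamous counts thus go the same way as the whole array.

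**Figure D1:**
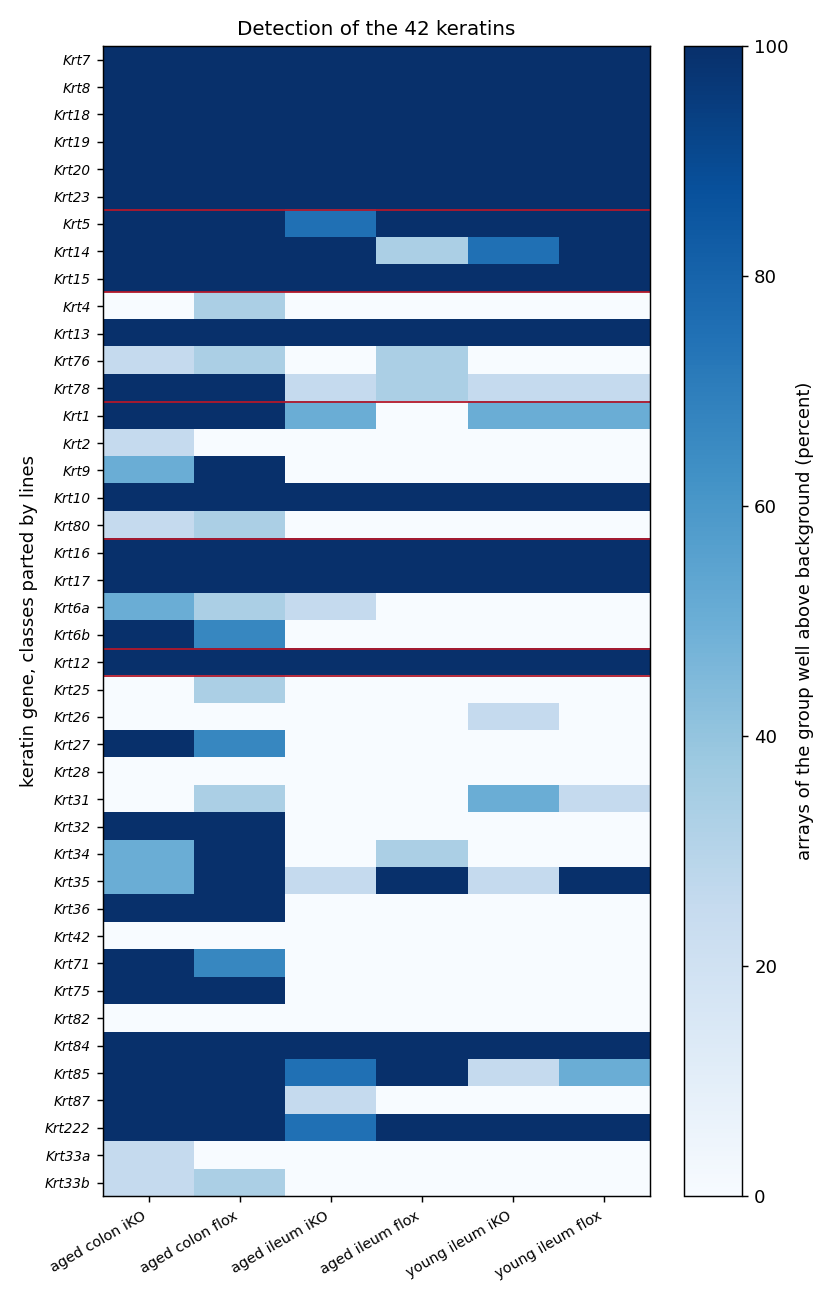
Share of the arrays of each group, in percent, on which each of the 42 keratins was well above background, with genes down the side in classes (simple, basal, inner stratified, epidermis, stress and appendage, cornea, other) parted by lines. The 6 simple keratins at the top are dark in every group, while most genes of the lowest class are detected on all arrays of the colon groups only or in no group.

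The squamous keratins were not accompanied by a full set of genes of layered epithelium. Of 25 squamous marker genes on the array, 12 were detected on all arrays of aged colon iKO and 12 of aged colon flox. In each ileum group 7 to 9 were detected on all arrays. Markers detected on no array of a group numbered 8 in aged colon iKO, 10 in aged colon flox and 11 to 14 in the ileum groups. Pkp1, a desmosomal plaque protein among these markers, was detected in every group. Colon arrays also held the larger share of all spots well above background. Only Dsc3, Sprr3 and Rptn were detected on none of the 22 arrays. Dsc3 is a desmosomal cadherin of layered epithelium, Sprr3 a cornified envelope protein and Rptn a keratin-binding matrix protein of the epidermis. Trp63, the transcription factor that defines basal squamous cells, was detected on 1 of 4 aged colon iKO arrays, 1 of 4 young ileum iKO arrays and none of the others. The summed signal of the 25 markers, in units of the 75th percentile, was 41.5 to 55.0 in aged colon iKO and 52.8 to 92.2 in aged colon flox, against 37.6 to 55.1 in aged ileum iKO and 29.0 to 38.9 in aged ileum flox. In the young ileum it was 30.5 to 35.2 in iKO and 20.4 to 29.4 in flox. The part of layered epithelium in the squamous keratin signal was not tested beyond these values.

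The first question was which keratins differ between colon and ileum at 24 months, in each genotype. The clearest simple keratin was Krt20, a type I keratin of differentiated surface enterocytes and goblet cells, which was lower in the colon in both genotypes. Krt10, Krt17 and, in iKO mice, Krt16 were higher in the colon, and all 3 were detected on every array of both tissues. In iKO mice 11 of 29 tested keratins passed, 7 higher and 4 lower, beside 43.6% of all 19646 genes tested (24.2% higher and 19.4% lower). In flox mice 12 of 29 passed, 7 higher and 5 lower, beside 32.9% of all genes (19.1% higher and 13.7% lower). Both lower counts include Krt8, whose probe was saturated. The keratins thus passed at shares near those of all genes, and the median difference over all genes was 0.07 in iKO and 0.08 in flox. Of the 29, those detected in the colon alone entered the test through the tissue where they are brighter, so these counts describe the list and support nothing about it.

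Background correction by normexp in place of the scanner's own moved the median over all genes to -0.07 in iKO and -0.05 in flox. With it the higher share of all called genes was 43.0% in iKO and 44.7% in flox, against 55.5% and 58.2% in the main analysis. The keratin counts became 4 higher and 8 lower in iKO, and 4 higher and 7 lower in flox. Krt36 and Krt85 lost their calls in both genotypes, Krt1 in flox and Krt87 in iKO, while Krt10, Krt17 and Krt20 were called in both genotypes under either correction.

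Krt20 was at 7.41, 7.35, 7.25 and 7.31 on the aged colon iKO arrays, against 8.34, 8.38, 8.44 and 8.35 on the aged ileum iKO arrays. On aged flox arrays it was at 7.41, 7.51 and 7.11 in the colon, against 8.18, 8.02 and 8.31 in the ileum. Neither genotype had an overlap between the tissues. The colon differed from the ileum by -1.05 ± 0.10 in iKO, or 0.483 of the ileum signal (adjusted p = 7.39e-06, limma), and by -0.83 ± 0.11 in flox, or 0.562 (adjusted p = 0.000223). Without the 2 aged ileum arrays that carried colon markers the differences were -1.05 (adjusted p = 7.26e-05) and -0.83 (adjusted p = 0.00144). The tissue difference did not pass as different between genotypes (-0.22 ± 0.15, 95% interval -0.54 to 0.10, adjusted p = 0.837).

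Other simple keratins moved less. Krt18, the type I partner of Krt8, was at 7.46, 7.32, 7.33 and 7.23 in aged colon iKO, against 7.01, 7.09, 6.99 and 6.76 in aged ileum iKO, with no overlap (0.37 ± 0.13, adjusted p = 0.0405, limma). This call was lost without the 2 aged ileum arrays (adjusted p = 0.0532). It was also lost without aged ileum flox replicate 4 (adjusted p = 0.0521), without aged ileum iKO replicates 1, 3 or 4 (0.0628, 0.0657 and 0.113 as adjusted p) and without aged colon iKO replicates 1, 2 or 3 (0.0999, 0.0715 and 0.0766 as adjusted p). In flox mice Krt18 differed by 0.08 ± 0.15 (adjusted p = 0.722). Krt19, a short type I keratin without a tail domain, differed by -0.29 ± 0.11 in iKO (adjusted p = 0.0508) and by -0.20 ± 0.13 in flox (adjusted p = 0.249).

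Krt7, a type II keratin of ducts and other simple linings, differed by 0.28 ± 0.24 in iKO and -0.06 ± 0.28 in flox, and its second probe by 0.23 ± 0.24 and -0.12 ± 0.27. None of these passed. The brightest Krt8 probe was saturated on all arrays of every group but aged ileum flox, where 2 of 3 were saturated, and no fold is given from it. It was called in both tissue comparisons, but a saturated probe gives neither a size nor a direction. A second Krt8 probe, saturated on no array, differed by 0.05 ± 0.09 in iKO (adjusted p = 0.694) and by -0.09 ± 0.10 in flox (adjusted p = 0.522).

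**Figure D2:**
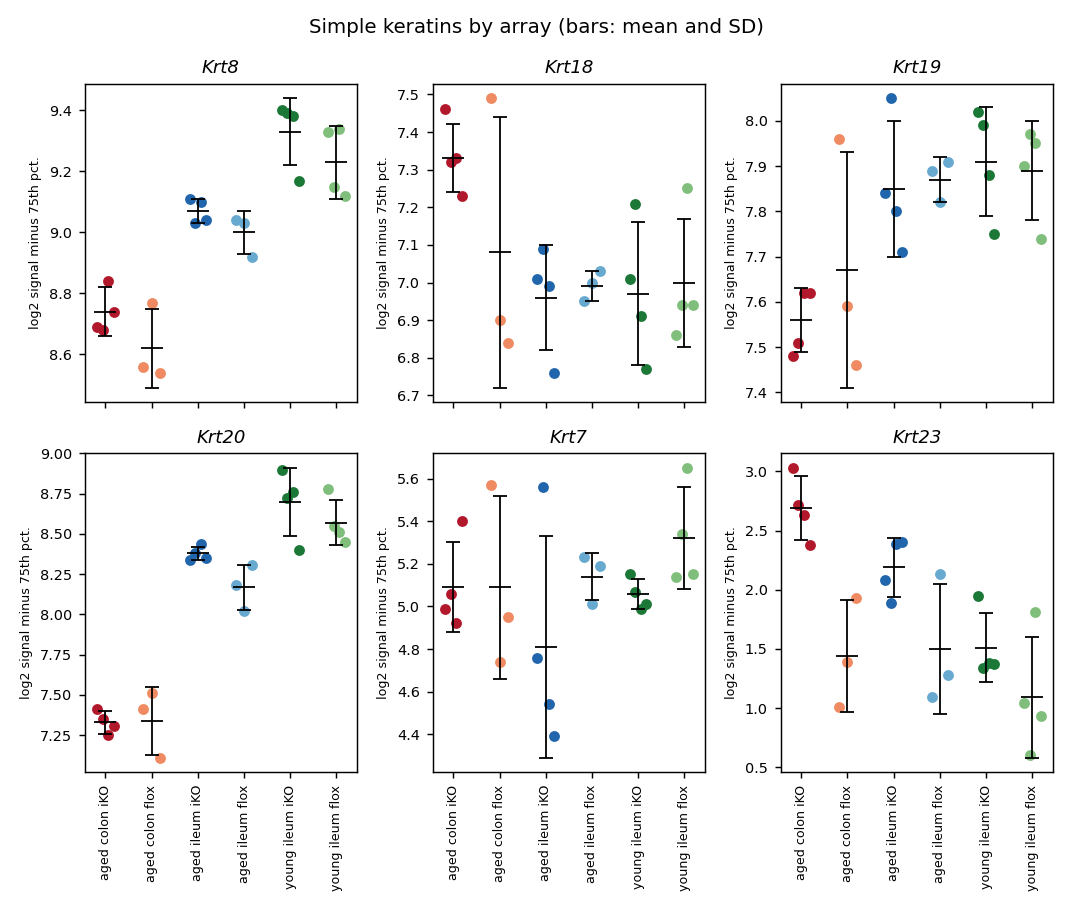
Level of each simple keratin on every array, as log2 signal minus the 75th percentile of the array, in the 6 groups, with a point per array and bars for the mean and SD. Krt20 lies between 7.11 and 7.51 in the colon and at 8.02 or above in the ileum, and Krt23 lies higher in aged colon iKO (2.38 to 3.03) than in aged colon flox (1.01 to 1.93). The Krt8 panel shows the saturated probe.

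Among epidermal keratins, Krt10, the type I keratin of cells above the basal layer, was the clearest member higher in the colon. It was at 0.45, 0.31, 0.55 and 0.15 in aged colon iKO, against -0.77, -0.66, -0.78 and -0.88 in aged ileum iKO. In flox it was at 0.60, 0.03 and 0.28 in the colon, against -0.64, -0.61 and -0.50 in the ileum. The tissues did not overlap in either genotype, and the differences were 1.14 ± 0.12 in iKO (2.20-fold, adjusted p = 2.35e-05, limma) and 0.89 ± 0.14 in flox (1.85-fold, adjusted p = 0.000676). A second, dimmer Krt10 probe, not detected on any aged ileum flox array and detected on 2 of 4 aged ileum iKO arrays, differed by 0.05 ± 0.38 in iKO (adjusted p = 0.929) and 0.49 ± 0.44 in flox (adjusted p = 0.426). Krt10 therefore passed by 1 of its 2 probes.

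Krt17 and Krt16 are type I keratins of hair follicles, glands and stressed or wounded epidermis. Krt17 was at 0.22, -0.83, -0.56 and -1.10 in aged colon iKO, against -2.26, -1.53, -2.24 and -2.14 in aged ileum iKO (1.47 ± 0.26, 2.78-fold, adjusted p = 0.000771, limma). In flox it was at -0.87, -0.92 and -0.41 in the colon, against -2.12, -1.87 and -2.10 in the ileum (1.30 ± 0.30, 2.46-fold, adjusted p = 0.00627). Neither genotype had an overlap. Krt16 was at -1.28, -1.01, -0.12 and -0.93 in aged colon iKO, against -1.94, -1.70, -2.07 and -1.90 in aged ileum iKO, again without overlap (1.07 ± 0.21, 2.10-fold, adjusted p = 0.00152). In flox Krt16 differed by 0.63 ± 0.24 (adjusted p = 0.0612). Without the 2 aged ileum arrays Krt10 differed by 1.17 in iKO (adjusted p = 0.000136) and 0.86 in flox (adjusted p = 0.00376), and Krt16 by 1.13 in iKO (adjusted p = 0.00407). Krt17 then differed by 1.64 in iKO (adjusted p = 0.000985) and 1.26 in flox (adjusted p = 0.0155).

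Basal keratins gave 1 call. Krt14, the type I keratin of basal cells, was at -0.71, -2.58 and -1.93 in aged colon flox, against -4.74, -3.03 and -4.11 in aged ileum flox, where only 1 of 3 arrays detected it (2.22 ± 0.55, adjusted p = 0.00915, limma). Its difference was 1.83 without the 2 aged ileum arrays (adjusted p = 0.0452). In iKO it was at -0.82, -2.61, -1.74 and -2.35 in the colon, against -3.01, -3.27, -2.84 and -3.21 in the ileum, without overlap, but did not pass (1.20 ± 0.47, adjusted p = 0.0590). Krt5, the type II partner of Krt14, differed by 0.22 ± 0.37 in iKO and 0.11 ± 0.43 in flox. Krt15, a second basal type I keratin, differed by 0.17 ± 0.31 and 0.48 ± 0.36. Neither passed in either genotype.

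Keratins of inner layered epithelium did not pass. Krt13, the type I keratin of oesophagus and tongue, was between 0.25 and 0.59 in aged colon iKO, against 0.47 to 1.05 in aged ileum iKO. It was between 0.14 and 1.02 in aged colon flox, against 0.63 to 1.07 in aged ileum flox. Its difference was -0.33 ± 0.20 in iKO (adjusted p = 0.202) and -0.33 ± 0.23 in flox (adjusted p = 0.295). The second Krt13 probe was not detected in either tissue and gave no fold. Krt78 differed by 0.24 ± 0.42 and 0.58 ± 0.48. Krt4, the usual type II partner of Krt13, was detected on 1 of 22 arrays, an aged colon flox array, and Krt76, of palate and tongue, on 1 aged colon iKO, 1 aged colon flox and 1 aged ileum flox array.

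Of the remaining squamous members, Krt1 was called in flox alone, at least 3.70-fold higher in the colon (adjusted p = 0.00654), with no aged ileum flox array well above background. This bound holds for the scanner's own background correction. With normexp the fitted difference was 0.53 (adjusted p = 0.0982, limma), which is below the bound. The brightest Krt1 probe matches the strand opposite to its second probe, and the second is the one named from the Krt1 RefSeq transcript. That second probe had a mean of -6.85 in aged colon flox, against -4.74 in aged ileum flox, with 1 of 3 arrays detecting it in each. The mean of both probes differed by -0.11 in flox (adjusted p = 0.879). In iKO the brightest probe differed by 0.47 ± 0.38 (adjusted p = 0.342). Krt9, of palm and sole skin, and Krt6b, of stressed epidermis, did not pass. Krt2, Krt6a and Krt80 were not detected on all arrays of any group. For the squamous class, 3 of 11 tested members were called higher in iKO (median difference 0.24), beside 24.2% of all genes, and 4 of 11 in flox (median 0.63), beside 19.1%. The flox count of 4 includes Krt1 by its opposite-strand probe. No squamous member was called lower. Krt1, Krt6b, Krt9 and Krt78 entered this test only through the colon, so the direction of these counts was partly set by the filter. Differences below 0 that were not called included that of Krt13 in both genotypes and that of Krt9 in iKO, whose ileum signal was below background.

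**Figure D3:**
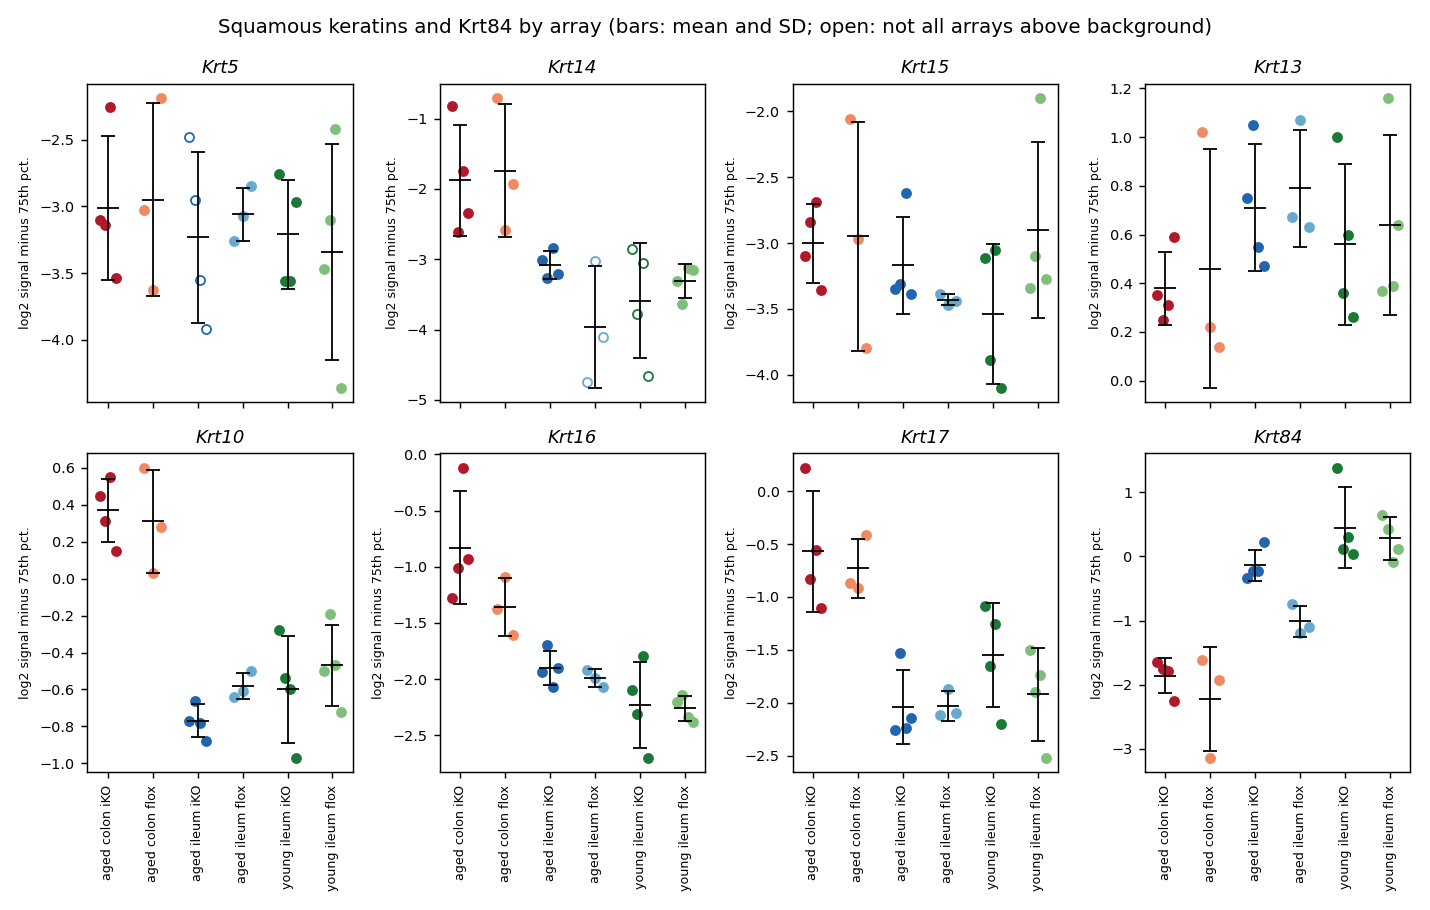
Level on every array, as log2 signal minus the 75th percentile of the array, of 7 squamous keratins and of Krt84 in the 6 groups, with a point per array, bars for the mean and SD, and open points where not all arrays of the group were well above background. Krt10 lies above 0 on all 7 colon arrays and at -0.19 or below on all 15 ileum arrays, and Krt84 lies lowest in the colon groups.

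Cornea and hair keratins went both ways. Krt84, a type II hair keratin, was at -1.65, -1.76, -1.78 and -2.26 in aged colon iKO, against -0.33, -0.23, -0.23 and 0.22 in aged ileum iKO (-1.72 ± 0.28, adjusted p = 0.000467, limma). In flox it was at -1.62, -3.14 and -1.92 in the colon, against -0.74, -1.19 and -1.10 in the ileum (-1.21 ± 0.33, adjusted p = 0.0137). The tissues did not overlap. The difference without the 2 aged ileum arrays was -1.75 in iKO (adjusted p = 0.00192) and -1.08 in flox (adjusted p = 0.0583). Leaving out aged colon flox replicate 3 brought the flox difference to -0.76 (adjusted p = 0.0271). Fitted with only the groups compared, the flox call was lost (-1.21, adjusted p = 0.0782, limma).

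Krt12, the type I keratin of the corneal surface, was lower in the colon by -1.45 ± 0.26 in iKO (adjusted p = 0.000844, limma) and by -1.14 ± 0.30 in flox (adjusted p = 0.0126). Without the 2 aged ileum arrays it passed in both genotypes (-1.59 and -1.13). Without aged ileum flox replicate 3 the flox value was -0.96 (adjusted p = 0.0521). Fitted with only the groups compared, the flox call of Krt12 was also lost (-1.14, adjusted p = 0.0559, limma). The second Krt12 probe was not detected on any aged array and gave no fold. Krt35, a type I hair keratin, passed in flox (-2.09 ± 0.70, adjusted p = 0.0371). That call was lost without aged ileum flox replicates 1 or 4 (0.115 and 0.0860 as adjusted p). It was also lost without aged colon flox replicates 1, 3 or 4 (0.0677, 0.102 and 0.0704 as adjusted p). Leaving out the 2 aged ileum arrays that carried colon markers ended it as well (adjusted p = 0.106). That fit gained calls not made with all arrays. Krt35 was lower in the colon in iKO (-1.73, adjusted p = 0.0499, limma). Krt222, an unplaced or hair-type keratin, was lower in iKO (-0.97, adjusted p = 0.0242) and flox (-1.11, adjusted p = 0.0363).

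Krt36, Krt85 and Krt87, all hair keratins, were higher in the colon in both genotypes, and all 3 were dim. Krt36 was detected on no aged ileum array and was at least 4.30-fold higher in iKO (adjusted p = 0.00633) and at least 4.34-fold in flox (adjusted p = 0.00926). Krt85 was higher by 0.88 ± 0.23 in iKO (adjusted p = 0.00835) and 1.18 ± 0.26 in flox (adjusted p = 0.00501). Krt87 was higher by 1.27 ± 0.25 in iKO (adjusted p = 0.00152), where 1 of 4 ileum arrays detected it, and at least 3.51-fold in flox (adjusted p = 0.000204). All 3 were called in both genotypes when the 2 aged ileum arrays were left out. Krt36 in flox was 1.59 without aged colon flox replicate 1, against a fitted 2.51 with all arrays. These bounds hold for the scanner's own background correction. With normexp the fitted Krt87 difference was 0.19 in iKO (adjusted p = 0.210) and 0.42 in flox (adjusted p = 0.0284), and that of Krt36 was 0.78 in iKO (adjusted p = 0.0923) and 1.02 in flox (adjusted p = 0.0687). The values of Krt36 and of Krt87 in flox are below these bounds. A second Krt36 probe was called in iKO, at least 6.05-fold higher (adjusted p = 0.00797), and not in flox (2.24 ± 0.89, adjusted p = 0.0728). Fitted with only the groups compared, Krt36 in flox also lost its call (adjusted p = 0.0761).

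**Figure D4:**
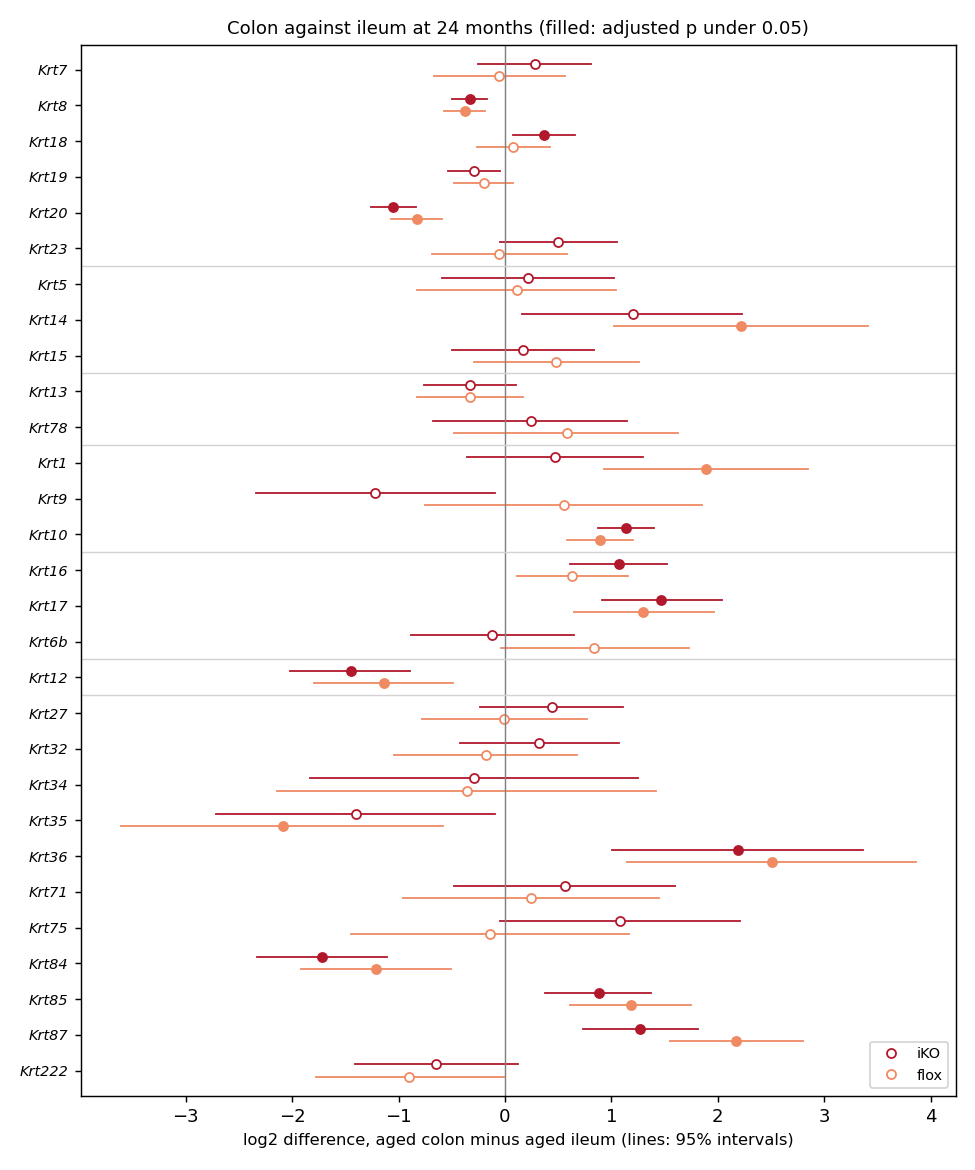
Difference between aged colon and aged ileum, in log2 units, for each of the 29 tested keratins, with 95% intervals as lines, iKO above flox for each gene, filled points for an adjusted p under 0.05, and classes parted by lines. Krt20, Krt12 and Krt84 lie left of 0 in both genotypes and Krt10, Krt17, Krt36, Krt85 and Krt87 right of it. Krt8 is the saturated probe, and the ileum signal was below background on all arrays for Krt6b, Krt9, Krt27, Krt32, Krt36, Krt71 and Krt75 in both genotypes, Krt34 in iKO, and Krt1 and Krt87 in flox.

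Promoter sequence is shown for Krt10, a member higher in the colon, and for Krt20 and Krt84, members lower in the colon, since these carry the tissue and age results. Krt10 and Krt20 lie in the type I cluster with their starts 48.8 kb apart and Krt12 between them, and the start of Krt23 lies 55.0 kb beyond Krt20. RefSeq windows (build GRCm38.p6) were available for 28 of the 42 keratins, and the 250 bases before the start of transcription are printed 5′ to 3′ on the strand of the gene. Capitals mark matches, on either strand, to the TATA box TATAAA, the CDX-type motif TTTATG, the AP-1 motif TGANTCA and the GC box GGGCGG. They lie on the minus strand at chr11:99438154-99438403 for Krt20, chr11:99389365-99389614 for Krt10 and chr15:101532821-101533070 for Krt84.
Krt20: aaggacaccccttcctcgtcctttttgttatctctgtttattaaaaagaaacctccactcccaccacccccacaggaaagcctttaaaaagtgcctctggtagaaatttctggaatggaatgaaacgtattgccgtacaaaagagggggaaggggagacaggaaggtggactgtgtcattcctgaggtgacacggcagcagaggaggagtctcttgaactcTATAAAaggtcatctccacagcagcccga
Krt10: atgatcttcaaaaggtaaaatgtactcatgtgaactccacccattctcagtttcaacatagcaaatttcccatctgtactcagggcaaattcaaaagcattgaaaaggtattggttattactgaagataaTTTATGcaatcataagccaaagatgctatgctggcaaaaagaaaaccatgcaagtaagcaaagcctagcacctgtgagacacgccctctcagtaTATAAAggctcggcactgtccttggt
Krt84: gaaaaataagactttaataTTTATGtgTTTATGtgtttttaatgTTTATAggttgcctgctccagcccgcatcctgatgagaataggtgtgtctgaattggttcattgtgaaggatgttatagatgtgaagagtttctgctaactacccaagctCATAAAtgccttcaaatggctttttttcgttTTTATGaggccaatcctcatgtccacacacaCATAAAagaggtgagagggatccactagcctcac

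Krt20 and Krt10 each held 1 TATAAA, at positions -29 and -26 from the start. Krt84 held its TATAAA match on the opposite strand, at position -206 from the start, and 5 matches to TTTATG, where Krt10 held 1 and Krt20 none. Among the 28 keratin windows 14 held TATAAA, against 13.0% of all 27025 windows, and 13 held TTTATG, against 11.1%. TGANTCA was found in 1 keratin window (6.87% of all windows) and GGGCGG in 2 (32.9% of all windows). A match describes letters in this window and is not a measured site.

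The signal of cell type markers also differed between the tissues, which does not show a difference in cell number. The summed signal of 4 mature enterocyte markers (Alpi, Sis, Anpep and Slc5a1) was 4.41 to 5.83 in aged colon iKO and 4.04 to 5.56 in aged colon flox, against 255 to 420 in aged ileum iKO and 258 to 481 in aged ileum flox. For 4 smooth muscle markers it was 129 to 233 and 168 to 179 in the colon, against 68.6 to 102 and 93.9 to 102 in the ileum. Their part in the keratin differences was not tested.

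Genes that anchor keratin filaments passed at shares near those of all genes. Of 16 plaque genes tested, 8 passed in iKO, 4 higher and 4 lower in the colon, beside 43.6% of all genes, and 4 in flox, 3 higher and 1 lower, beside 32.9%. Dst, a hemidesmosome linker, was higher by 1.39 ± 0.17 in iKO (adjusted p = 4.82e-05, limma) and 1.12 ± 0.19 in flox (adjusted p = 0.00106). Dsc2, a desmosomal cadherin, was lower by -0.58 ± 0.13 in iKO (adjusted p = 0.00332) and -0.52 ± 0.15 in flox (adjusted p = 0.0192), a flox call lost without aged ileum flox replicate 1 (adjusted p = 0.0541) or aged colon flox replicate 4 (adjusted p = 0.0777). Pkp2, a desmosomal plaque protein, was lower in iKO (-0.71 ± 0.13, adjusted p = 0.000793). Of 14 other intermediate filament genes, 3 were called higher in iKO, beside 24.2% of all genes, and 4 in flox, beside 19.1%. Among them were Nefm and Gfap, of neurons and glia, which were detected on no aged ileum array and so entered the test only through the colon. Nefm was at least 3.45-fold higher in iKO and 2.38-fold in flox, and Gfap at least 2.39-fold and 3.13-fold.

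The second question was whether keratins differ between iKO and flox mice. No keratin was called in any of the 3 comparisons. In the aged colon 0 of 29 tested members passed limma, beside 0.112% of 19595 genes, and 1 member had an unadjusted p under 0.05. For the aged ileum it was 0 of 18, beside 0.168% of 15497 genes, with 2 members at that level, and for the young ileum 0 of 18, beside 0.0452%, with 1 member. Median differences over the tested keratins were 0.01, 0.06 and 0.00, against -0.01, 0.02 and -0.01 over all genes. These comparisons had so few calls over the whole array that a count of 0 among the keratins says little about them as a list.

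Krt23, a type I keratin of simple epithelia, had the smallest unadjusted p of any keratin in an iKO comparison. It was at 3.03, 2.72, 2.63 and 2.38 in aged colon iKO, against 1.01, 1.39 and 1.93 in aged colon flox. The genotypes did not overlap, and the share of all genes without an overlap was not counted. The difference was 1.25 ± 0.24 (2.38-fold, 95% interval 0.67 to 1.82, unadjusted p = 0.0013) and did not pass over all genes (adjusted p = 0.216, limma). On the 3 slides that held both genotypes it was 0.70, 1.34 and 1.37, but aged colon flox arrays all sat at position 3 and aged colon iKO arrays at position 4, so that genotype and position cannot be told apart.

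In the aged ileum Krt23 was at 2.08, 1.89, 2.39 and 2.40 in iKO, against 1.09, 2.13 and 1.28 in flox, with an overlap (0.69 ± 0.29, adjusted p = 0.373). On the 1 slide that held both genotypes the difference was -0.24, and without the 2 arrays that carried colon markers it was 0.59 (adjusted p = 0.556). In the young ileum it was at 1.95, 1.34, 1.38 and 1.37 in iKO, against 1.04, 0.60, 1.81 and 0.93 in flox, again with an overlap (0.42, adjusted p = 0.999). The mean was thus higher in iKO in all 3 comparisons, and none passed. Over all alternatives the fitted difference was 1.03 to 1.49 in aged colon, 0.48 to 1.00 in aged ileum, and between 0.26 and 0.66 in young ileum.

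Hair keratins held the other low p-values. Krt84 was at -0.33, -0.23, -0.23 and 0.22 in aged ileum iKO, against -0.74, -1.19 and -1.10 in aged ileum flox, without overlap (0.87 ± 0.29, unadjusted p = 0.00923, adjusted p = 0.263, limma). Krt10, Krt20, Krt85 and Krt87 did not overlap in this comparison either. The share of all genes without an overlap was not counted. Krt35 was at -5.59, -5.52, -3.39 and -4.08 in young ileum iKO, where 1 of 4 arrays detected it, against -3.27, -3.28, -2.26 and -2.79 in young ileum flox, where all did. These also did not overlap (-1.75 ± 0.64, unadjusted p = 0.0166, adjusted p = 0.999). The difference was between -2.32 and -0.60 on the 4 young slides, but every young flox array sat at position 1 and every young iKO array at position 2, so that genotype and position cannot be told apart there.

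The other simple keratins differed little, and their intervals give the limits. For Krt20 the 95% interval of iKO minus flox was -0.30 to 0.27 in aged colon, -0.05 to 0.46 in aged ileum, and from -0.11 to 0.36 in young ileum. For Krt19 it was -0.44 to 0.21, -0.24 to 0.19 and -0.18 to 0.22, and for Krt18 -0.15 to 0.67, -0.29 to 0.23 and -0.27 to 0.22. Among squamous members tested in all 3 comparisons, Krt10 had intervals of -0.33 to 0.45, -0.50 to 0.13 and -0.42 to 0.17, while that of Krt14 in the aged colon ran from -1.45 to 1.17.

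**Figure D5:**
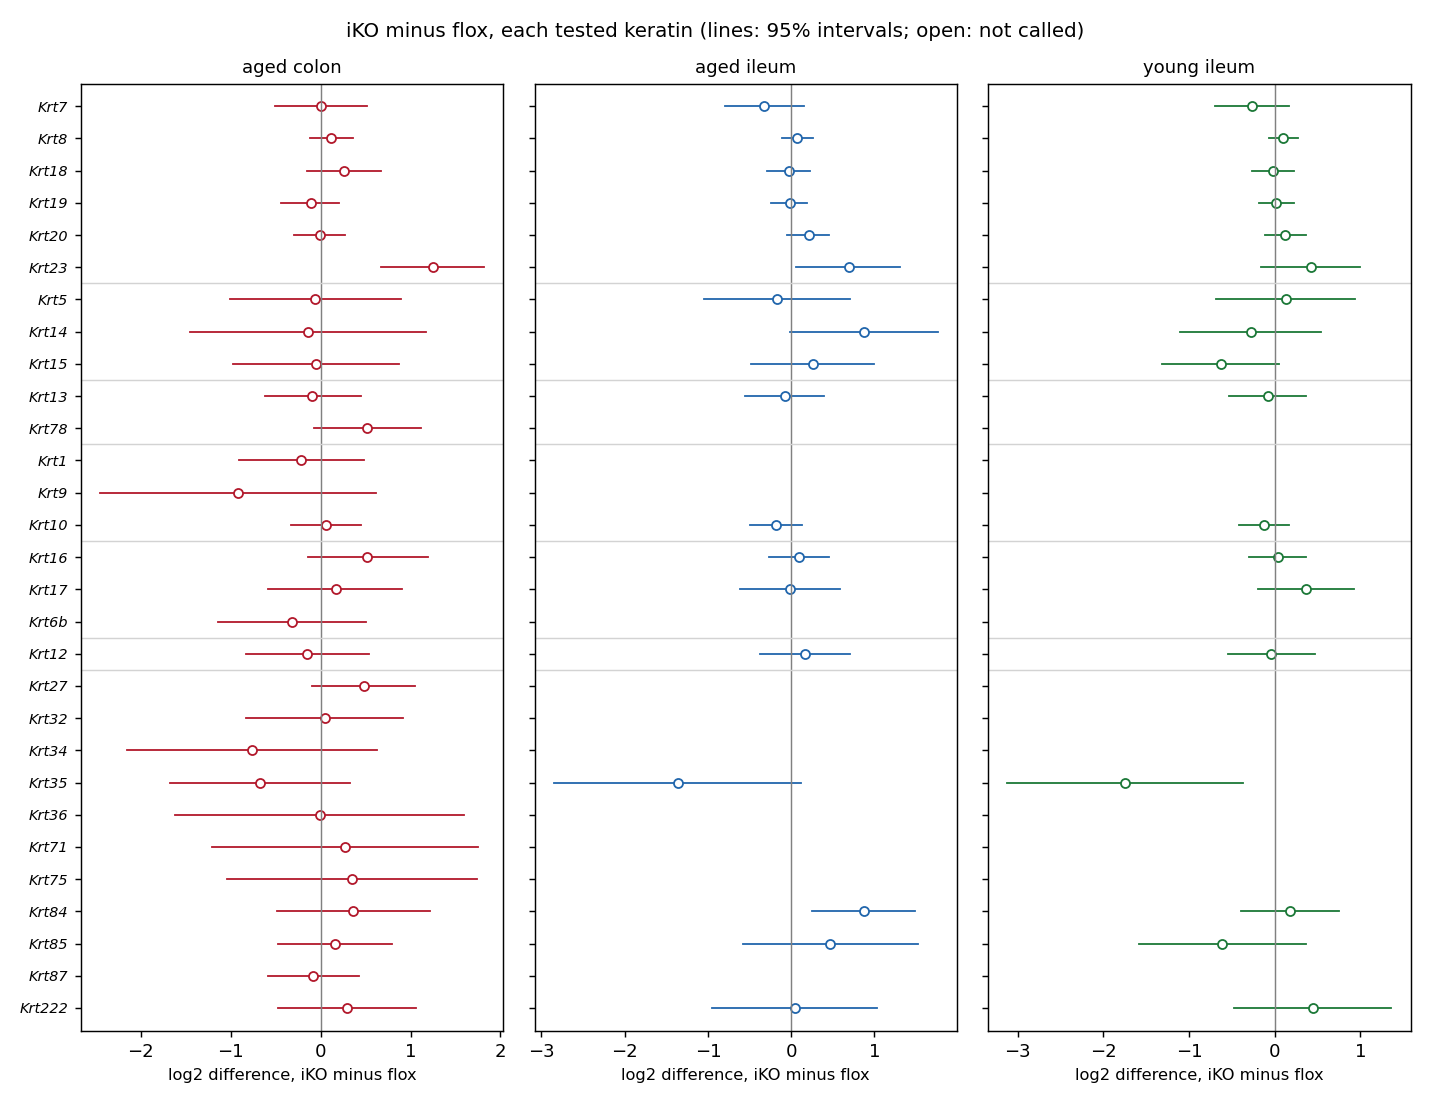
Difference between iKO and flox, in log2 units, for each tested keratin in the aged colon, the aged ileum and the young ileum, with 95% intervals as lines and open points because none passed. Krt23 in the aged colon (0.67 to 1.82) and the aged ileum (0.06 to 1.31), Krt84 in the aged ileum and Krt35 in the young ileum have intervals that do not include 0. Genes without a point were not tested in that tissue.

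Among the genes that hold keratins, none of 16 plaque genes and no other intermediate filament gene passed in an iKO comparison. Unadjusted p-values under 0.05 were found for 2 plaque genes in the aged colon, 3 in the aged ileum and 2 in the young ileum, and for 0, 2 and 0 of the other filament genes. Over all genes that level was reached by 1415 of 19595 in the aged colon, 1850 of 15497 in the aged ileum and 641 of 15497 in the young ileum. Pkp1, a desmosomal plaque protein that binds keratins and was held here among the squamous markers, passed in the aged ileum. It was at 2.90, 3.12, 2.81 and 2.67 in iKO, against 2.11, 2.21 and 2.12 in flox (0.73 ± 0.10, adjusted p = 0.00884, limma). Without the 2 aged ileum arrays that carried colon markers it was 0.63 (adjusted p = 0.0420), and the call was lost without aged ileum flox replicate 4 (adjusted p = 0.0594) and when slide was a fixed term (adjusted p = 0.115). The Pkp1 call was also lost with only the 2 groups fitted (adjusted p = 0.114), with position on the slide as a term (adjusted p = 0.296) and in the fit of the 14 aged arrays (adjusted p = 0.0646). It was also without overlap in the aged colon, with 2.60 to 2.95 in iKO against 1.88 to 2.39 in flox (0.73 ± 0.16, adjusted p = 0.263). In the young ileum it was between 2.43 and 2.70 in iKO, against 1.95 to 2.08 in flox (0.56 ± 0.09, adjusted p = 0.0599). For the aged colon and the young ileum, genotype and position on the slide cannot be told apart. The share of all genes without an overlap was not counted.

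The third question was how keratins of the ileum differ with age. Krt84 fell in aged flox mice and was the only keratin with a fold that passed. It was at -0.74, -1.19 and -1.10 in aged flox, against 0.65, 0.43, -0.09 and 0.12 in young flox, without overlap (-1.29 ± 0.29, 0.409 of the young signal, adjusted p = 0.0188, limma). In iKO 1 of 18 keratins passed, on the lower side by the fitted sign, beside 10.7% of all 15497 genes (5.58% lower), and in flox 1 of 18, also lower, beside 8.54% (5.36% lower). Age called a larger share of all genes than of keratins, and with so few members that difference was not tested.

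The Krt84 call was lost without aged ileum flox replicate 3 (-1.20, adjusted p = 0.0551) or 4 (-1.24, adjusted p = 0.0697) and without young ileum flox replicate 1 (-1.17, adjusted p = 0.0506). With the 2 arrays that carried colon markers left out it was -1.43 (adjusted p = 0.0462). On the 2 slides that held aged and young flox arrays the difference was -1.63 and -0.83. In iKO it was at -0.33, -0.23, -0.23 and 0.22 in aged mice, against 1.38, 0.11, 0.30 and 0.03 in young mice, with an overlap, and differed by -0.60 ± 0.26 (adjusted p = 0.164). The aged ileum flox arrays enter the age, genotype and tissue comparisons of Krt84 alike. The age difference was not shown to depend on genotype (0.69 ± 0.39, adjusted p = 1).

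In iKO the 1 keratin called was Krt8, by its saturated probe (adjusted p = 0.0486, no fold given). The unsaturated probe differed by -0.27 ± 0.11 in iKO (adjusted p = 0.141) and -0.21 ± 0.12 in flox (adjusted p = 0.288). Leaving out single arrays ended this call for 12 of 15 arrays, all but young ileum flox replicates 2 and 3 and young ileum iKO replicate 4, with an adjusted p of up to 0.124. It was also lost without the 2 aged ileum arrays (adjusted p = 0.113).

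Krt20 did not pass with age in either genotype. It was at 8.34, 8.38, 8.44 and 8.35 in aged ileum iKO, against 8.90, 8.72, 8.76 and 8.40 in young ileum iKO, with an overlap (-0.32 ± 0.11, adjusted p = 0.0790, limma). In flox it was at 8.18, 8.02 and 8.31 in aged mice, against 8.78, 8.55, 8.51 and 8.45 in young mice, without overlap (-0.40 ± 0.12, adjusted p = 0.0522). The flox difference passed without young ileum iKO replicate 1 (adjusted p = 0.0429) or replicate 4 (adjusted p = 0.0282), and the iKO difference without young ileum iKO replicate 4 (-0.41, adjusted p = 0.0243). Neither passed without the 2 aged ileum arrays (adjusted p = 0.146 in iKO and 0.137 in flox). With quantile normalization the Krt20 difference was -0.04 in iKO (adjusted p = 0.824) and -0.20 in flox (adjusted p = 0.233). The flox difference passed with normexp (adjusted p = 0.0308), a stricter filter (adjusted p = 0.0468) and trended robust variances (adjusted p = 0.0374). No squamous keratin of the 7 tested passed with age in either genotype, and their median difference was 0.15 in iKO and -0.11 in flox.

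Age moved the higher share of all called genes with the scaling used. It was 48.0% in iKO and 37.2% in flox in the main analysis, and 59.6% and 51.1% with quantile normalization. Beside the keratins, Cdx2, a transcription factor of gut epithelium, was lower in aged mice by -1.41 ± 0.09 in iKO (adjusted p = 3.78e-07, limma) and -1.54 ± 0.09 in flox (adjusted p = 3.68e-07). Epcam, an epithelial adhesion molecule, was lower by -0.49 ± 0.10 in iKO (adjusted p = 0.0120) and -0.45 ± 0.11 in flox (adjusted p = 0.0271), where the call was lost without the 2 aged ileum arrays (adjusted p = 0.103) and without young ileum flox replicates 1, 3 or 4 or aged ileum flox replicates 1 or 4 (adjusted p up to 0.103). Cdx2 and Epcam were the 2 called of 8 gut epithelium markers in each genotype, beside 10.7% of all genes in iKO and 8.54% in flox. Of the 8 differences, 3 in iKO and 2 in flox were above 0. The summed signal of the 8 gut epithelium markers was 870 to 949 in aged iKO and 857 to 944 in aged flox, against 973 to 1210 in young iKO and 1010 to 1160 in young flox. Their part in the keratin values was not tested.

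Of the plaque genes, Dsg2, the desmosomal cadherin of simple epithelia, and Plec, which links keratin to hemidesmosomes, fell in aged iKO mice (-0.53 ± 0.12, adjusted p = 0.0178, and -0.53 ± 0.14, adjusted p = 0.0288). The Plec call was lost without any 1 of 7 iKO arrays, all but young ileum iKO replicate 4 (adjusted p up to 0.0722), and without the 2 aged ileum arrays (adjusted p = 0.0815). The Dsg2 call was lost without young ileum iKO replicate 3 (adjusted p = 0.0566) or aged ileum iKO replicate 1 (adjusted p = 0.0560). In iKO 2 of 16 plaque genes passed, beside 10.7% of all genes. In flox 0 of 16 passed limma, beside 8.54% of all genes. There 3 had an unadjusted p under 0.05, a level reached by 4107 of 15497 genes. Of 10 other intermediate filament genes tested, Lmnb1, a nuclear lamin, fell in both genotypes (-1.31 ± 0.14 in iKO, adjusted p = 0.000136, and -1.87 ± 0.16 in flox, adjusted p = 1.05e-05).

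Neither interaction called a keratin. For genotype by age in the ileum, 0 of 18 members passed limma, beside 0% of all genes, with 0 members at an unadjusted p under 0.05 and 391 of 15497 genes at that level. For genotype by tissue at 24 months 0 of 29 passed, beside 0.0356% of all genes. There 3 members had an unadjusted p under 0.05: Krt1 (-1.42 ± 0.58), Krt87 (-0.90 ± 0.38) and Krt9 (-1.77 ± 0.79), where 1178 of 19646 genes reached that level, with adjusted p of 0.810, 0.813 and 0.817. All 3 were below background on all arrays of at least 1 ileum group, so their sizes rest on background signal.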

How the data were processed

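Total RNA of ileum and colon was read on one-colour Agilent whole-genome mouse arrays. The deposited intensity values are the scanner software's processed signals (Agilent Feature Extraction 9.5, per the submitters' processing notes), background-subtracted and not scaled between arrays, per the file headers. From these intensity values log2 levels were computed by subtracting each array's 75th percentile. Control spots and outlier spots were left out, which removed 1 keratin value (Krt33b on aged colon flox replicate 1). Old symbols were updated through RefSeq, so that Krt2-1, Krt2-17 and Krt2-25 are given as Krt1, Krt2 and Krt87. Each gene was read from its brightest probe.

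A probe entered a fit if all arrays of 1 or more of its groups were well above background there. The test was limma (version 3.58.1, R 4.3.3) with Benjamini-Hochberg adjustment over all genes and a call at an adjusted p under 0.05. Where 1 group was not well above background, a difference is given as a lower bound of the fold. The number of arrays limits the precision. Alternatives changed the normalization, background correction, filter, probe, slide, replicate block and arrays.

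Genes named were those called, the simple keratins and members of the classes and lists. The members and lists were chosen with earlier results of these data known. Same-numbered arrays were checked for pairing: correlations of their deviations ran from -0.36 to 0.37, with 11 of 24 above 0.1, and they were not treated as pairs.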

Additional observations from a re-analysis of the deposited data

Results flagged for a closer look

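In groups of 4 arrays, a single array was marked where its gap to the nearest other array took up most of the range of the group. Of 68 groups tested, 4 were marked, close to the share of about 1 in 20 that chance gives. Krt15, a basal keratin, was at -2.62 on aged ileum iKO replicate 3, against -3.39 to -3.31 on the others of that group, and at -1.90 on young ileum flox replicate 3, against -3.34 to -3.10. Krt17 was at -1.53 on aged ileum iKO replicate 2, against -2.26 to -2.14 on the others, and that array is 1 of the 2 that carried colon markers. Krt23 was at 1.95 on young ileum iKO replicate 1, against 1.34 to 1.38 on the others.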

How the results depend on the processing

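The count of called keratins was 0 in all 3 iKO comparisons and both interactions under every alternative run. With age, the iKO count of 1 became 0 with quantile normalization, normexp, no filter, the mean over probes, slide as a fixed factor, only the groups compared, the second probe, and without the 2 aged ileum arrays with colon markers, and was 0 to 2 when single arrays were left out. The flox count of 1 became 2 with normexp, a stricter filter or trended robust variances and 0 with no filter or slide as a fixed factor, and was 0 to 2 when single arrays were left out. Between tissues, the iKO count of 11 was 10 to 14 without single arrays. The flox count of 12 became 7 with a stricter filter or the second probe and was 11 to 14 without single arrays. Krt1 in flox turned to -0.11 with the mean over probes. For Krt8, whose saturated probe gives no size or direction, the fitted tissue values were 0.02 in iKO and 0.08 in flox with quantile normalization, and the unsaturated second probe gave 0.05 in iKO. With the replicate block, the counts were 11 in each tissue comparison, 1 in each age comparison and 0 for genotype, and Krt35 in flox lost its call (adjusted p = 0.0503). Except for saturation and dim probes, causes were not tested. Colon arrays detected dimmer probes than ileum arrays, and a probe near background limits the size of any tissue difference.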
